A study of Homo sapiens with 9 samples.

Results

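The genes described are 46 genes of double-strand break and interstrand crosslink repair, out of 56823 genes summed from the deposited transcripts. They were listed by name, with earlier results of these data known. They are 23 homologous recombination genes, 10 end joining genes and 13 Fanconi genes, and all 46 had enough reads to be tested. The libraries are total RNA of H1975, a cell line from a human non-small cell lung cancer. It carries dCas9-KRAB, a Cas9 that binds DNA without cutting it, joined to a repressor domain, under a doxycycline-responsive promoter. Cells of the control group carried a non-targeting guide RNA, and those of the other groups carried gRNA1 or gRNA2 against the long noncoding RNA TRIDENT. All 3 groups received doxycycline at 4 ug/ml for 72 h and were grown under G418 and puromycin, so the repressor was induced in the controls too. Each group has 3 libraries. The labels do not say that these are separate cultures, whether the line is 1 clone, or what the guide sequences are, so a p-value sets a difference against the variation of these libraries, which may be technical.

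A double-strand break can be repaired in several ways. In end joining, Ku binds the ends, the kinase DNA-PKcs joins it, and ligase IV with XRCC4 seals them, whereas a second route anneals short matching stretches with DNA polymerase theta. In homologous recombination the ends are cut back to single strands, RPA covers these, and mediators such as BRCA2 load the recombinase that copies the sister chromatid. The Fanconi proteins recognise strands that are covalently linked, mark the FANCD2 and FANCI pair with ubiquitin and call in nucleases. Many recombination and Fanconi genes are known to be transcribed mostly in cells that replicate their DNA.

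Read totals ran from 16918432 to 26466536 per library. All 8 lung epithelial markers checked had reads, among them EPCAM at 318 to 366 TPM (the share of a transcript among all transcripts, a level per length) and NKX2-1 at 36.6 to 42.9 TPM. The 10 blood and stromal markers summed to 51.8 to 58.2 TPM in the controls, 51.9 to 53.3 in gRNA1 and 58.5 to 62.2 in gRNA2, mostly CD68 and COL1A1, while CD3E was at most 0.0279 TPM and COL3A1 was listed at 0. The library labelled gRNA2 replicate 3, the shallowest, lay apart from the other 8 on the second principal component. The RNA matched to the target through a RefSeq synonym had 36 to 62 reads per library and was at 0.745-fold of the control in gRNA1 (95% interval 0.588 to 0.943, edgeR adjusted p = 0.128) and at 0.945-fold in gRNA2 (0.753 to 1.19, adjusted p = 0.81). Repression of the target was not shown with either guide by the test adjusted over all genes. In reads scaled to library size, all gRNA1 libraries lay below all controls (as for 14.6% of all genes), whereas gRNA2 overlapped them. The names gRNA1 and gRNA2 stand throughout for the libraries with those labels.

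Each of the 46 genes had reads in every control library, over a wide range of levels. XRCC6 and XRCC5, the smaller and larger subunit of Ku, led the order with mean control levels of 123 and 95.1 TPM. RPA3, the smallest RPA subunit, followed at 85.1 TPM, then PRKDC, which encodes the DNA-PK catalytic subunit, at 67.1 TPM and RPA1, the large RPA subunit, at 67 TPM. At the other end stood BRCA2 at 2.37 TPM, SLX4, a nuclease scaffold, at 2.42 TPM and BLM, a RecQ helicase, at 2.93 TPM. The median control level was 13.1 TPM over the homologous recombination genes, 18.4 TPM over the end joining genes and 16.9 TPM over the Fanconi genes. Of the 45 pairs of neighbours in this order, 8 had control libraries that did not overlap, so most neighbours could not be ranked against each other.

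**Figure D1:**
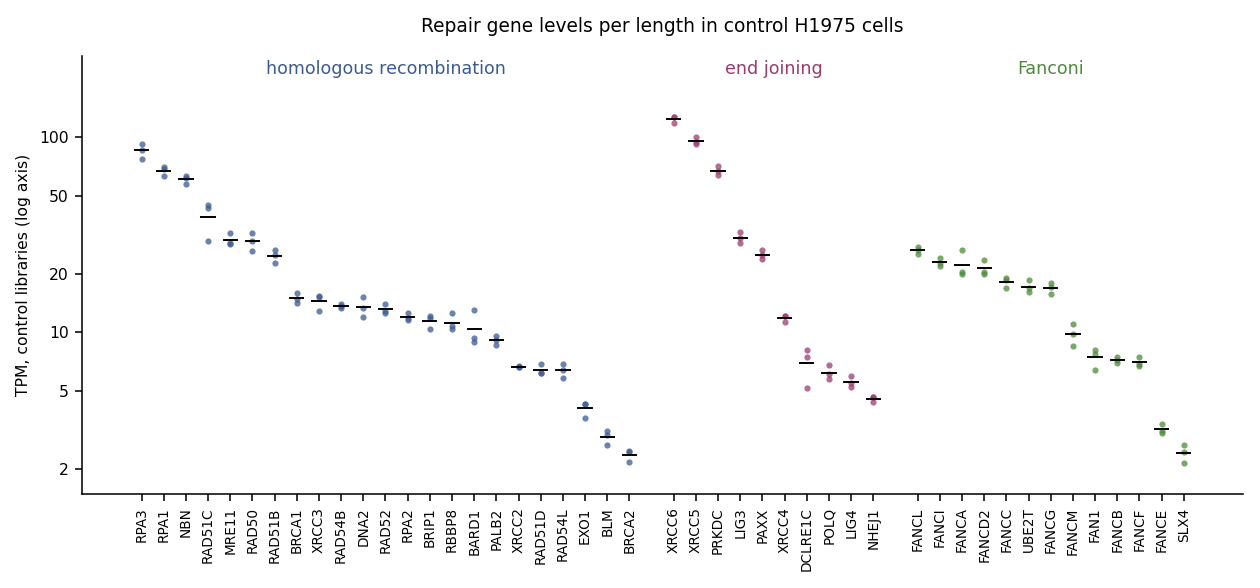
Level per length (TPM, log axis) of each of the 46 genes in the 3 control libraries, with points for libraries and a bar for the mean, ordered within the 3 classes. The Ku genes, PRKDC, RPA3, RPA1 and NBN lie above 50 TPM in every control library, and the Fanconi genes span a narrower range, from 2.42 to 26.3 TPM.

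In gRNA2 5 end joining genes, 2 recombination genes and 2 Fanconi genes were lower, at 0.781- to 0.909-fold of the control, and in gRNA1 no repair gene passed as lower. Some genes without a call in gRNA1 had folds in the same range, such as XRCC4 at 0.857, RAD54B at 0.859 and FANCG at 0.852, and most gRNA2 calls were not called in the direct comparison of the guides. A gene was counted as changed where its adjusted p in edgeR's quasi-likelihood test, corrected over the 19658 genes tested, was under 0.05. In gRNA1 1 of 46 genes passed, BARD1, which was higher, against 7.08% of all genes in either direction (3.49% higher, 3.58% lower). In gRNA2 10 of 46 passed, 9 lower and 1 higher, which is 21.7% against 8.44% of all genes (4.75% lower, 3.69% higher). As the genes were listed with earlier results of these data known, these shares are descriptive and not independent support. The gene that rose, RBBP8, is a recombination gene. The fold lay below 1 for 33 of 46 genes in gRNA2 (47.8% of all genes) and for 29 of 46 in gRNA1 (50.1% of all genes). The median log2 fold change in gRNA2 was -0.13 over the end joining genes, -0.11 over the Fanconi genes and -0.07 over the recombination genes, against 0.01 over all genes. In gRNA1 these medians were -0.06, -0.04 and -0.01, against -0.00. In gRNA2 all 3 libraries lay below all 3 controls for 18 of 46 genes (13.7% of all genes) and above them for 4 (13.6%), and in gRNA1 for 10 (14.6%) and 5 (13.5%). Both comparisons use the same 3 control libraries.

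These counts depend on how reads are turned into gene values. The main values are CPM, the reads of a gene scaled to a common library size, and take no account of which transcript the reads were assigned to. When the fit was given each gene's average transcript length as an offset, none of the 17 calls made for members in the 3 comparisons passed the threshold, and the biological coefficient of variation rose from 0.051 to 0.0886. Genes called over the whole table fell as well under that offset, from 1391 to 538 in gRNA1 and from 1659 to 434 in gRNA2. With reads of protein-coding transcripts alone, an alternative added after the data were seen, 8 of the 17 calls held. Those lost were BARD1 in gRNA1 (adjusted p = 0.0597), RAD54B, XRCC4, XRCC5, PRKDC and UBE2T in gRNA2 (0.0605, 0.0605, 0.0626, 0.127 and 0.475) and POLQ, EXO1 and RAD52 between the guides (0.0844, 0.0814 and 0.949). In fits of only the 2 groups compared, RBBP8, FANCD2 and UBE2T in gRNA2 (0.0522, 0.0592 and 0.076) and POLQ and RAD52 between the guides (0.0763 and 0.066) were lost.

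**Figure D2:**
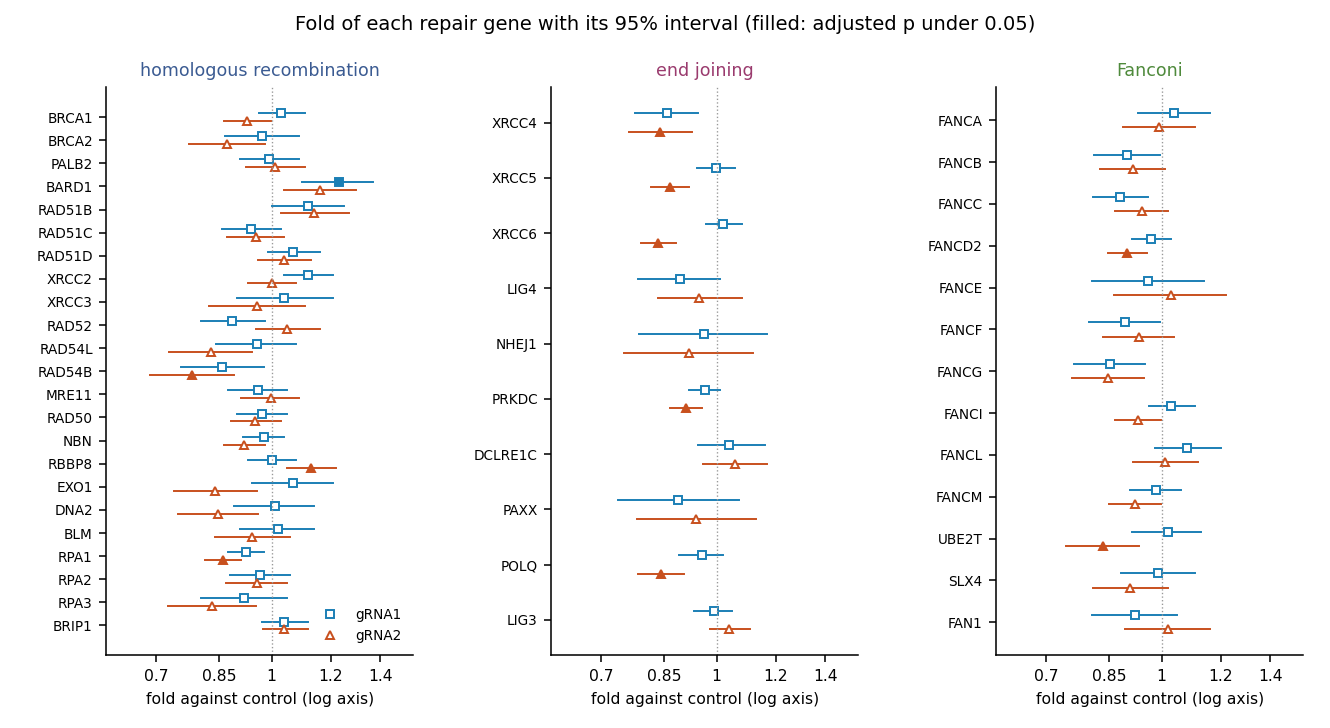
Fold against the control for each of the 46 genes, on a log axis, with its 95% interval from edgeR, squares for gRNA1 and triangles for gRNA2, filled where the adjusted p is under 0.05. The 9 filled triangles to the left of 1 include XRCC6 at 0.835, XRCC5 at 0.866 and RPA1 at 0.86, and BARD1 at 1.23 is the one filled square.

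Among the end joining genes, all 3 that make up the DNA-PK holoenzyme fell in gRNA2. XRCC6 (chromosome 22, positions 41621119 to 41664048 of hg38) had 305, 295 and 305 CPM in the controls, 302, 300 and 323 in gRNA1, and 249, 253 and 254 in gRNA2. The gRNA2 libraries lay below all 6 others, at 0.835-fold of the control (95% interval 0.791 to 0.881, edgeR adjusted p = 0.000748), while gRNA1 was at 1.02-fold (0.967 to 1.08, adjusted p = 0.686). XRCC5 (chromosome 2, positions 216107464 to 216206303) had 237, 237 and 249 CPM in the controls, 244, 241 and 237 in gRNA1, and 198, 210 and 218 in gRNA2. Here too the gRNA2 libraries were the 3 lowest, at 0.866-fold (0.816 to 0.919, edgeR adjusted p = 0.00549), and gRNA1 was at 0.998-fold (0.941 to 1.06, adjusted p = 0.98). PRKDC had 568, 563 and 573 CPM in the controls, 557, 562 and 523 in gRNA1, and 509, 515 and 526 in gRNA2. Its gRNA2 libraries lay below the controls but reached into the range of gRNA1, at 0.909-fold of the control (0.865 to 0.956, edgeR adjusted p = 0.0221), with gRNA1 at 0.964-fold (0.917 to 1.01, adjusted p = 0.386). The PRKDC call ended without any 1 of the 3 controls (adjusted p = 0.0689, 0.0755 and 0.094 without replicates 1, 2 and 3) and without gRNA2 replicate 1 or 2 (0.0564 and 0.12). The calls for XRCC6 and XRCC5 held without each of the 9 libraries in turn.

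The fall of the Ku genes was smaller per length than in reads. The TPM of XRCC6 in gRNA2, 120, 115 and 116, overlapped the controls at 126, 117 and 126, a ratio of 0.949. For XRCC5 the TPM ratio was 0.945, with 88.7, 88.9 and 91.9 in gRNA2 against 99.4, 91.4 and 94.5. PRKDC was at a TPM ratio of 0.965. The balance of the subunits per length was the same within its spread, with a ratio of XRCC5 to XRCC6 of 0.773 ± 0.0232 in the controls, 0.785 ± 0.0768 in gRNA1 and 0.77 ± 0.0278 in gRNA2 (mean ± SD, n = 3 each).

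The reads of XRCC6 fall on a pair of transcripts with the same coding exons. XRCC6-202 and XRCC6-205 have 13 exons each, share 12, and differ in the first, a noncoding exon at positions 41621119 to 41621345 in XRCC6-202 and 41621461 to 41621591 in XRCC6-205. XRCC6-202 was at 48.9, 58.6 and 29.8 TPM in the controls, 55.2, 45.1 and 62.4 in gRNA1, and 21.9, 29.9 and 22.8 in gRNA2, so that 2 of the 3 gRNA2 libraries lay below every other library and the third stood level with the lowest control. XRCC6-205 was at 52.3 ± 13.7 TPM in the controls, 49.3 ± 9.69 in gRNA1 and 61.6 ± 5.82 in gRNA2. Control replicate 3 had a like split, with 29.8 TPM of XRCC6-202 and 67.2 of XRCC6-205, beside 305 CPM of the gene, so the division of reads between these transcripts varied within a group. The transcripts were not tested singly. Of the 31-base words of XRCC6, 28% also occur in transcripts of other genes, most of them in the pseudogene XRCC6P2, so its reads may be shared, whereas XRCC5 has none in common and PRKDC 0.337%. Here and below, words were matched on either strand. As the strand setting is not given, words in common with a gene on the opposite strand may or may not mean shared reads. The main transcript of XRCC5, XRCC5-201, held 81% of its reads and was at 46.8 ± 1.17, 47.2 ± 2.18 and 41.2 ± 3.9 TPM in the controls, gRNA1 and gRNA2. PRKDC-201 held 95.7% of the reads and was at 32.2 ± 0.289, 31.8 ± 2.13 and 30.5 ± 1.75 TPM.

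**Figure D3:**
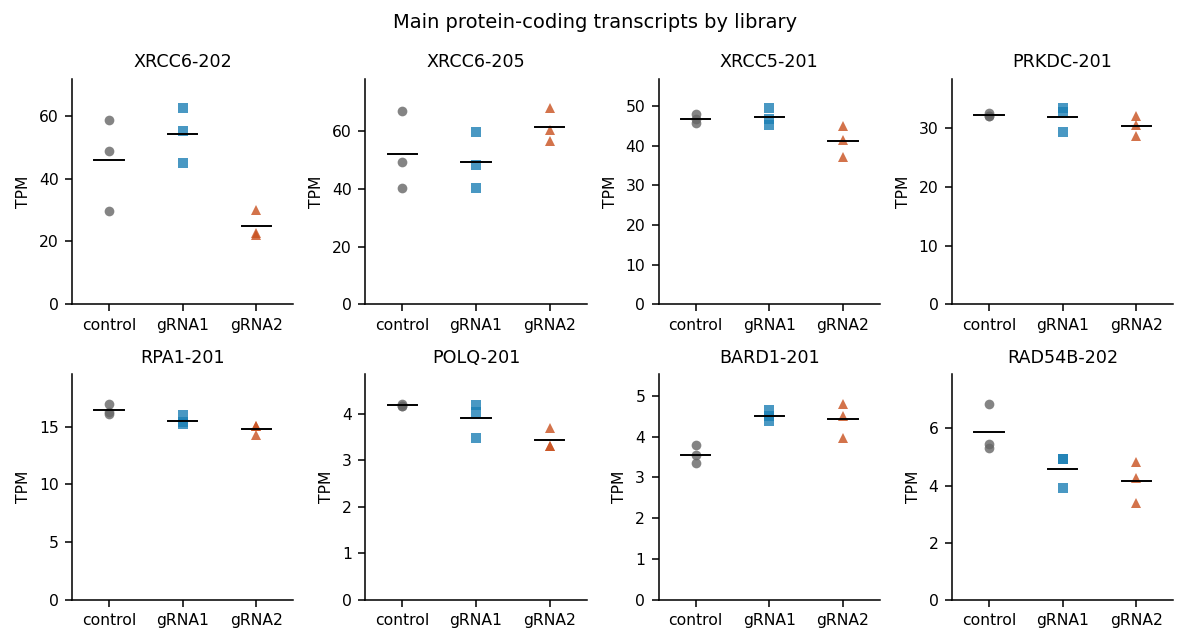
TPM of main protein-coding transcripts of 7 called genes in each library, with points for libraries and a bar for the mean of each group, on axes that start at 0. XRCC6-202 is lower in gRNA2 at a mean of 24.9 TPM while XRCC6-205 is not, and POLQ-201 lies between 3.31 and 3.69 TPM in gRNA2 against 4.17 to 4.22 TPM in the controls.

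Of the ligation step, XRCC4, the scaffold that holds ligase IV, fell in gRNA2, and LIG4 itself did not pass the test. XRCC4 had 20, 20.3 and 19.7 CPM in the controls, 18.3, 16.4 and 16.8 in gRNA1, and 16.9, 17.6 and 15.8 in gRNA2. Both guides lay below all controls and overlapped each other. The fold was 0.84 in gRNA2 (95% interval 0.762 to 0.927, edgeR adjusted p = 0.0315) and 0.857 in gRNA1 (0.776 to 0.945, adjusted p = 0.0589), so the threshold separates values that hardly differ. The gRNA2 call ended without any 1 of the controls or gRNA2 libraries, at adjusted p = 0.0551 to 0.105, and in DESeq2 at 0.0568. LIG4 was at 0.892-fold in gRNA1 and 0.947-fold in gRNA2. None of the 3 processing and scaffold genes passed, which are DCLRE1C (the nuclease Artemis), NHEJ1 (XLF) and PAXX, with folds between 0.887 and 1.06 over both guides. NHEJ1 shares 63.3% of its 31-base words with AC068946.1, so its level and fold are uncertain.

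In alternative end joining, POLQ, which encodes polymerase theta, fell in gRNA2, and LIG3, a ligase that can seal such joints, did not pass. POLQ (chromosome 3, positions 121431427 to 121546641) had 47.3, 48.7 and 47.6 CPM in the controls, 47.7, 45.9 and 43.6 in gRNA1, and 41.2, 40.5 and 39 in gRNA2. The gRNA2 libraries were the 3 lowest of the 9, at 0.842-fold (95% interval 0.784 to 0.903, edgeR adjusted p = 0.00536), and gRNA1 was at 0.955-fold (0.891 to 1.02, adjusted p = 0.448). The gRNA2 call of POLQ held without each library in turn. It was also seen per length: POLQ-201 held 93.3% of the reads and was at 4.19 ± 0.0252 TPM in the controls, 3.91 ± 0.372 in gRNA1 and 3.44 ± 0.221 in gRNA2. LIG3 was at 0.991-fold in gRNA1 and 1.04-fold in gRNA2 (adjusted p = 0.424), and 30.6% of its 31-base words also occur in other genes, mostly in its neighbour RFFL.

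**Figure D4:**
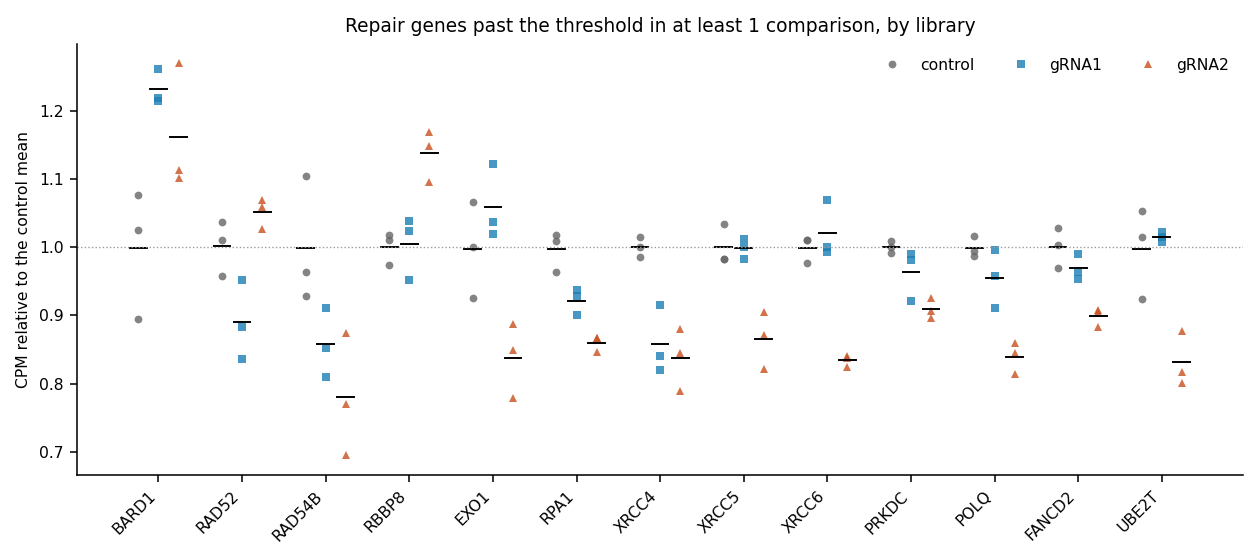
CPM of the 13 genes past the threshold in at least 1 of the 3 comparisons, divided by the mean of the 3 controls, with points for libraries and a bar for the mean of each group. In gRNA2 XRCC6 is tightly grouped between 249 and 254 CPM, below all other libraries, whereas RAD54B is spread from 19.4 to 24.4 CPM and overlaps gRNA1.

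Among the recombination genes, the RPA subunits had folds below 1 with both guides, and RPA1 fell in gRNA2. RPA coats single-stranded DNA in replication and in repair. RPA1 (chromosome 17, positions 1829702 to 1900082) had 112, 107 and 113 CPM in the controls, 104, 100 and 103 in gRNA1, and 96.2, 96.2 and 93.9 in gRNA2. The 3 groups did not overlap, with gRNA1 between the other two, at 0.86-fold in gRNA2 (95% interval 0.813 to 0.91, edgeR adjusted p = 0.00319) and 0.923-fold in gRNA1 (0.873 to 0.977, adjusted p = 0.0839). The gRNA2 call held without each library in turn. RPA1-201, which held 77.7% of the reads, was at 16.5 ± 0.511, 15.5 ± 0.397 and 14.8 ± 0.454 TPM in the controls, gRNA1 and gRNA2. RPA3 was at 0.831-fold in gRNA2 (0.726 to 0.952, adjusted p = 0.089) and passed there in DESeq2 (adjusted p = 0.037), and RPA2 was at 0.956-fold (0.869 to 1.05, adjusted p = 0.593).

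Of the genes of end sensing and resection, RBBP8 rose in gRNA2. It encodes CtIP, which starts resection together with the MRE11, RAD50 and NBN complex. RBBP8 (chromosome 18, positions 22798261 to 23026488) had 38, 39.7 and 39.4 CPM in the controls, 39.9, 40.5 and 37.1 in gRNA1, and 42.7, 44.8 and 45.6 in gRNA2. The gRNA2 libraries were the 3 highest, at 1.13-fold of the control (95% interval 1.05 to 1.22, edgeR adjusted p = 0.0365). This call ended without any 1 of the 3 controls, without gRNA1 replicate 1 or 2 and without gRNA2 replicate 2 or 3, at adjusted p = 0.0553 to 0.153, and in DESeq2 at 0.0616. RBBP8-201 held 72.5% of the reads and was at 6.74 ± 0.0999 TPM in the controls, 6.09 ± 0.92 in gRNA1 and 8.13 ± 0.943 in gRNA2. MRE11 was at 0.997-fold in gRNA2, RAD50 at 0.951 and NBN at 0.919, and none of them passed with either guide. Of the 31-base words of RAD50, 78.6% also occur in the overlapping gene AC116366.3 or others, so its reads cannot be assigned to it alone. The long-range resection nucleases EXO1 and DNA2 were at 0.84-fold (0.739 to 0.956, adjusted p = 0.0909) and 0.847-fold (0.749 to 0.959, adjusted p = 0.0936) in gRNA2, with all 3 libraries below all 3 controls in both. BLM and the helicase BRIP1 were at 0.941-fold and 1.04-fold.

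The mediators that load the recombinase did not pass in gRNA2, and BARD1, the partner of BRCA1 in a ubiquitin ligase, rose in gRNA1. BARD1 (chromosome 2, positions 214725646 to 214809711) had 21.3, 25.6 and 24.4 CPM in the controls, 28.9, 29 and 30 in gRNA1, and 26.2, 30.2 and 26.5 in gRNA2. Both guides lay above all controls, at 1.23-fold in gRNA1 (95% interval 1.1 to 1.37, edgeR adjusted p = 0.0264) and 1.16-fold in gRNA2 (1.04 to 1.3, adjusted p = 0.0875). The gRNA1 call ended without control replicate 1 or 3 (adjusted p = 0.0911 and 0.0673) and without gRNA1 replicate 1, 2 or 3 (0.0692, 0.0781 and 0.0689). BARD1-201 held 81.9% of the reads and was at 3.35, 3.54 and 3.79 TPM in the controls, 4.5, 4.38 and 4.65 in gRNA1, and 3.97, 4.81 and 4.51 in gRNA2. On this transcript as well, each guide library was above each control. Reads of all BARD1 transcripts gave TPM ratios of 1.18 in gRNA1 and 1.03 in gRNA2. BRCA1 was at 1.03-fold and 0.928-fold in gRNA1 and gRNA2, BRCA2 at 0.972 and 0.871, and PALB2, which bridges them, at 0.992 and 1.01.

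The 5 paralogs that assist the filament, RAD51B, RAD51C, RAD51D, XRCC2 and XRCC3, had no call with either guide. Their folds ran from 0.938 to 1.12 in gRNA1 and from 0.954 to 1.14 in gRNA2. XRCC3 shares 71.2% of its 31-base words with KLC1, which limits what its level and fold say. RAD51B and XRCC2 were highest with 1.12-fold each in gRNA1 (edgeR adjusted p = 0.21 and 0.0651), with all 3 libraries above the controls. RAD51D differed between scales, at 1.04-fold in CPM and at a TPM ratio of 0.837 in gRNA2, where the protein-coding share of its TPM was 63.8%, 73.9% and 74.3% against 53.1%, 59.9% and 58.5% in the controls.

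Of the annealing and motor proteins, RAD54B, a translocase related to RAD54L, fell in gRNA2. It had 25.9, 26.9 and 30.8 CPM in the controls, 25.4, 23.8 and 22.6 in gRNA1, and 19.4, 24.4 and 21.5 in gRNA2. Both guides lay below the controls, at 0.781-fold in gRNA2 (95% interval 0.687 to 0.889, edgeR adjusted p = 0.0214), the lowest fold among the 46 genes, and 0.859-fold in gRNA1 (0.756 to 0.976, adjusted p = 0.147). The call ended without control replicate 2 or 3 (adjusted p = 0.052 and 0.111) and without gRNA2 replicate 1 or 3 (0.0642 and 0.0576). RAD54B overlaps FSBP, and 57.6% of its 31-base words occur in that gene too. Its transcript RAD54B-202 held 73.4% of the reads and was at 5.88 ± 0.854, 4.59 ± 0.583 and 4.16 ± 0.729 TPM in the controls, gRNA1 and gRNA2, whereas the TPM of the whole gene gave a ratio of 0.935 in gRNA2. RAD54L was at 0.829-fold in gRNA2 (0.729 to 0.942, adjusted p = 0.068), and RAD52, an annealing protein, at 0.886-fold in gRNA1 and 1.05-fold in gRNA2 without a call against the control.

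Of the 13 Fanconi genes, FANCD2 and UBE2T, the ubiquitin-conjugating enzyme that modifies it, fell in gRNA2, by small amounts. FANCD2 (chromosome 3, positions 10026414 to 10101930) had 65.5, 63.3 and 67.1 CPM in the controls, 62.3, 64.6 and 62.9 in gRNA1, and 57.7, 59.1 and 59.3 in gRNA2, the 3 lowest, at 0.899-fold (95% interval 0.846 to 0.955, edgeR adjusted p = 0.0316). UBE2T (chromosome 1, positions 202331657 to 202341980) had 12.1, 13.3 and 13.8 CPM in the controls, 13.2, 13.4 and 13.3 in gRNA1, and 11.5, 10.5 and 10.7 in gRNA2, again the 3 lowest, at 0.833-fold (0.745 to 0.931, edgeR adjusted p = 0.0434). In gRNA1 FANCD2 was at 0.969-fold and UBE2T at 1.02-fold. The FANCD2 call ended without any 1 of the 6 control and gRNA2 libraries and without gRNA1 replicate 1 or 2 (adjusted p = 0.0506 to 0.147). That of UBE2T ended without control replicate 2 or 3, any 1 gRNA1 library, or gRNA2 replicate 2 or 3 (0.0526 to 0.169), and in DESeq2 (0.104).

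Single transcripts placed these changes differently. FANCD2-202 held 65.6% of the reads of FANCD2. It was at 7.59, 7.82 and 7.39 TPM in the controls, 7, 6.62 and 6.92 in gRNA1, and 5.51, 5.83 and 6.39 in gRNA2. For this transcript the groups did not overlap and followed the order control, gRNA1, gRNA2. FANCD2-205 (6.32% of the reads) was higher with both guides. Its TPM was 1.17, 1.35 and 1.19 in the controls, 1.69, 1.53 and 1.78 in gRNA1, and 1.39, 1.68 and 1.59 in gRNA2. FANCD2-201 (14.8%) overlapped the controls with both guides. The TPM of the whole gene in gRNA2 overlapped the controls, at a ratio of 0.967. It was 18.7, 20.4 and 22.4, against 19.9, 23.5 and 20.3 in the controls. Of the 31-base words of FANCD2, 14.4% also occur in other genes, the largest part in FANCD2P2 (5.67%). UBE2T-206 held 74.6% of the reads of UBE2T and was at 12.8 ± 1.52, 14.9 ± 0.689 and 12 ± 0.222 TPM in the controls, gRNA1 and gRNA2, so that gRNA2 did not stand apart from the controls. The retained-intron transcript UBE2T-203 was at 3.11 ± 0.44 TPM in the controls, 0.296 ± 0.513 in gRNA1 and 1.21 ± 0.502 in gRNA2.

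FANCI, the partner of FANCD2, was at 0.93-fold in gRNA2 (0.865 to 0.999, edgeR adjusted p = 0.204). The ratio of FANCD2 to FANCI per length was 0.927 ± 0.0522 in the controls, 0.946 ± 0.0517 in gRNA1 and 0.929 ± 0.0547 in gRNA2. None of the 8 genes of the core complex, the ligase that modifies this pair, passed with either guide. Their folds ran from 0.852 to 1.08 in gRNA1 and from 0.848 to 1.03 in gRNA2. FANCG, an adaptor of that complex, was lowest with both guides, at 0.852-fold in gRNA1 (0.762 to 0.951, adjusted p = 0.0782) and 0.848-fold in gRNA2 (0.759 to 0.947, adjusted p = 0.0644). FANCC was at 0.88-fold and 0.941-fold, below all controls with both. FANCA read differently by scale with both guides. It was at 1.04-fold in gRNA1 and 0.993-fold in gRNA2 in the fit, and at TPM ratios of 1.22 and 1.27. Transcripts annotated for nonsense-mediated decay held 35.4%, 24% and 26.2% of its TPM in gRNA1 and 28.4%, 33.3% and 28.5% in gRNA2, against 17.5%, 21.9% and 20.5% in the controls. Of the 31-base words of FANCA, 21.2% also occur in other genes, mostly in ZNF276, so its reads may be shared. The nuclease FAN1 and the scaffold SLX4 were at 1.02-fold and 0.908-fold in gRNA2 with no call. FAN1 shares 23.8% of its words with other genes, mostly with MTMR10.

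The direct comparison of gRNA2 with gRNA1 asks where the guides differ. Its difference is between the 6 guide libraries, while the controls share in the estimate of the spread. It called 6 of 46 genes (13% against 6.22% of all genes), 5 lower in gRNA2 (3.1% of all genes) and 1 higher (3.12%). The 3 gRNA2 libraries lay below all 3 of gRNA1 for 13 genes (12% of all genes) and above for 4 (11.9%). XRCC6 was lower by a log2 difference of -0.29 (edgeR adjusted p = 0.000303) and XRCC5 by -0.20 (adjusted p = 0.00683), both holding without each library in turn. POLQ differed by -0.18 (adjusted p = 0.035), UBE2T by -0.29 (adjusted p = 0.0354) and EXO1, the exonuclease of long-range resection, by -0.34 (adjusted p = 0.0291). EXO1 had 10.9, 12 and 11.1 CPM in gRNA1 and 8.33, 9.09 and 9.49 in gRNA2, and the controls, at 11.4, 9.9 and 10.7, lay above gRNA2 and overlapped gRNA1. RAD52 was higher in gRNA2 by 0.24 (adjusted p = 0.0425), with 20.2, 20 and 19.4 CPM against 18, 16.7 and 15.8 in gRNA1 and 18.1, 19.1 and 19.6 in the controls. For POLQ the call ended without 6 of the 9 libraries (control replicate 2 or 3, gRNA1 replicate 1 or 2, gRNA2 replicate 2 or 3, adjusted p = 0.0559 to 0.169). For UBE2T it ended without control replicate 2, any 1 gRNA1 library, or gRNA2 replicate 2 or 3 (0.0508 to 0.149). For EXO1 it ended without any 1 gRNA1 library or gRNA2 replicate 1 or 2 (0.0599 to 0.129). For RAD52 it ended without control replicate 2 or 3, gRNA1 replicate 2 or 3, or any 1 gRNA2 library (0.061 to 0.149). DESeq2 called none of UBE2T, EXO1 and RAD52 between the guides (adjusted p = 0.0876, 0.0589 and 0.0933). RAD52 with reads of protein-coding transcripts alone differed by -0.02, and its retained-intron transcript RAD52-209 was at 2.2 ± 0.0845 TPM in gRNA2 against 1.26 ± 0.131 in gRNA1. The other gRNA2 calls against the control were not called between the guides, with edgeR adjusted p = 0.144 for RPA1, 0.443 for RAD54B, 0.0501 for RBBP8, 0.883 for XRCC4, 0.179 for PRKDC and 0.147 for FANCD2.

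Proliferation-linked genes were lower in gRNA2 as well, with median changes larger than those of the repair classes. The lists of these genes were also chosen with earlier results of these data known. Their counts and folds are those of the main fit. How these calls fare under the transcript length offset, where the repair calls were lost, is not given here. Of 36 S phase genes that are not among the 46, 15 were lower (41.7%) and none higher in gRNA2. Of 54 genes of G2 and mitosis 38 were lower (70.4%) and none higher, against 4.75% of all genes lower. The median log2 fold changes were -0.20 and -0.28. In gRNA1 2 and 3 genes of these lists were lower, with medians of -0.03 and -0.04. That is 5.56% of each list, against 7.08% of all genes in either direction and 3.58% lower. MKI67, a marker of cycling cells, was at 524 ± 7.33 CPM in the controls, 505 ± 28.1 in gRNA1 and 383 ± 10.5 in gRNA2 (0.731-fold, edgeR adjusted p = 1.39e-05). CCNB2, a mitotic cyclin, was at 0.761-fold (adjusted p = 0.00111) and PCNA, the replication clamp, at 0.759-fold (adjusted p = 0.000774) in gRNA2. By library, the mean log2 CPM of the G2 and mitosis genes relative to the control mean was -0.307, -0.274 and -0.240 in gRNA2, and that of the S phase genes -0.201, -0.183 and -0.179. The same mean was -0.100, -0.135 and -0.145 over the end joining genes, -0.081, -0.084 and -0.127 over the Fanconi genes and -0.113, -0.044 and -0.043 over the recombination genes. In gRNA2 each of these 5 lists lay below all 3 controls in every library. In gRNA1 the recombination genes (-0.019 to 0.013) and the S phase genes overlapped the controls, as did the end joining genes (-0.104 to -0.021), whereas the Fanconi genes (-0.076 to -0.043) and the G2 and mitosis genes (-0.040 to -0.026) lay below them. In bulk RNA, fewer cycling cells and less RNA of these genes per cell cannot be told apart, and the part of proliferation-linked expression in the repair gene values was not tested.

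**Figure D5:**
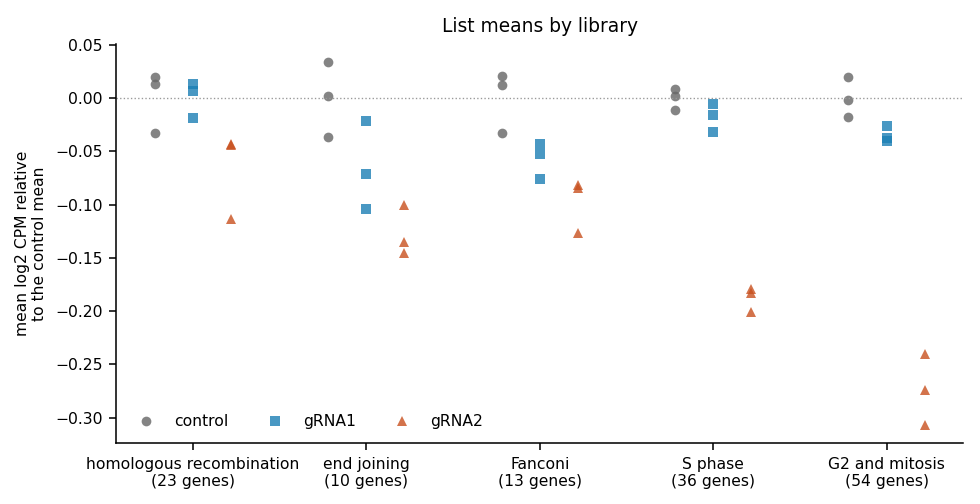
Mean log2 CPM of each gene list relative to its control mean, by library, for the 3 repair classes and the 2 proliferation-linked lists. The gRNA2 libraries lie at -0.307 to -0.240 for G2 and mitosis, at -0.201 to -0.179 for S phase and at -0.145 to -0.043 for the 3 repair classes.

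Promoter sequence is shown for XRCC6, RPA1 and POLQ, which had the lowest adjusted p in gRNA2 among called genes with a promoter in the RefSeq table, because the proliferation-linked genes are known for promoter motifs that the repair genes can be checked for. The motifs searched, on both strands in the 250 bases before the RefSeq start (GRCh38.p14), were TTTGAA (the core of the CHR element of mitotic genes), CCAAT (bound by NF-Y), and GCGGGAA and TTGGCGC (forms of the E2F site). They were counted separately and may overlap by a few letters. Capitals mark the matches, some of which read as the reverse complement, and the stretches leave out annotated exons except for 30 bases around a match.
XRCC6, chr22:41621257-41621286, plus strand: tagagggcgttgATTGGgaccgagtacagg
RPA1, chr17:1829901-1829970, plus strand: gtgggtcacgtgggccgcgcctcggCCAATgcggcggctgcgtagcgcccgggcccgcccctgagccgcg
RPA1, chr17:1829825-1829854, plus strand: tggcgcgccccTTGGCGCcccgctccgccc
POLQ, chr3:121546007-121546238, minus strand: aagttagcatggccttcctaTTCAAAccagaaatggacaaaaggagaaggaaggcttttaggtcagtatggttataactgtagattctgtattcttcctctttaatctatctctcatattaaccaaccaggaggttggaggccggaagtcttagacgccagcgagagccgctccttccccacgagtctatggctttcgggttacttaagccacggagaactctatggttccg
The CCAAT match of XRCC6 begins 26 bases before its RefSeq start, inside the first exon of XRCC6-202, and its window also holds 52 bases of exon of DESI1 on the other strand. RPA1 has CCAAT at 79 bases and TTGGCGC at 169 bases before its start, with 127 bases of exon of the divergent gene SMYD4 in its window. Exons of RPA1 itself cover 180 of the 250 bases, and the TTGGCGC match lies in them. POLQ has TTTGAA at 230 bases before its start, in a stretch without exons that lies within the annotated span of POLQ. The window of XRCC4 held no match, and 176 of its bases lie in exons of TMEM167A on the other strand, so it is not printed.

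The repair promoters held these motifs about as often as promoters in general, apart from GCGGGAA. Of the 46 genes, 38 have a promoter in the table. CCAAT was found in 34.2% of them against 32% of all 35116 promoters, TTTGAA in 10.5% against 13.3%, TTGGCGC in 2.63% (1 promoter) against 2.56% and GCGGGAA in 18.4% against 5.52%. The gene lists were counted with 1 promoter per gene, whereas the 35116 promoters were not reduced to 1 per gene. GCGGGAA was in 4 of 18 recombination, 3 of 12 Fanconi and 0 of 8 end joining promoters. For comparison, TTTGAA was in 53.3% and CCAAT in 68.9% of 45 G2 and mitosis promoters, and GCGGGAA in 44.4% and TTGGCGC in 22.2% of 27 S phase promoters. A match is a description of these letters, not of a bound site.

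Other genes of the same pathways, 60 genes outside the 46, were called about as often as all genes. In gRNA1 2 were higher and 2 lower (6.67%, against 7.08% of all genes), and in gRNA2 1 was higher and 4 lower (8.33%, against 8.44%). PARP1, a sensor of strand breaks that acts in alternative end joining, moved in opposite directions with 98.5 ± 0.629 CPM in the controls, 110 ± 4.46 in gRNA1 (1.11-fold, edgeR adjusted p = 0.0311) and 86.1 ± 1.83 in gRNA2 (0.874-fold, adjusted p = 0.00931). Between the guides it differed by a log2 value of -0.35 (adjusted p = 0.000158). In gRNA2 RFWD3, a ubiquitin ligase of crosslink repair that acts on RPA, was at 0.892-fold (adjusted p = 0.0176), WDR48, a cofactor of the enzyme that removes ubiquitin from FANCD2, at 0.863-fold (0.0368), RAD51AP1 at 0.786-fold (0.0442) and FIGNL1 at 1.14-fold (0.0462). In gRNA1 MUS81, a structure-specific nuclease, was at 0.796-fold (edgeR adjusted p = 0.0237), POLL, a gap-filling polymerase of end joining, at 0.849-fold (0.0142) and REV1, a translesion polymerase, at 1.11-fold (0.037). GEN1, a nuclease that cuts Holliday junctions, was lower in gRNA2 than in gRNA1 by a log2 difference of -0.27 (edgeR adjusted p = 0.0125).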

How the data were processed

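Total RNA libraries were made after ribosomal RNA depletion, per the labels' protocols. Transcript levels were estimated by the authors with Salmon 1.4.0 and the hg38 build, per the submitters' processing notes. The deposited tables hold an estimated count of reads per transcript and TPM, per the file headers. The transcript annotation and the strand setting are not given in the sources used here.

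Of 211939 transcripts, 95.7% matched GENCODE 29, and the estimated counts of each gene's transcripts were added up (56823 genes) and rounded. The 1.264% to 1.325% of reads on other transcripts were left out. Members were matched by current symbol. The members and all lists were chosen with earlier results of these data known. Samples were grouped by their labels. Genes were tested with edgeR 4.0.16 in R 4.3.3: filterByExpr (minimum count 10) kept 19658, TMM set the library sizes, and two-sided quasi-likelihood F tests compared the groups in 1 fit of all 9 libraries with Benjamini-Hochberg adjustment over all genes tested. Intervals are 95% and rest on edgeR's estimate of the variation between libraries. TPM was used for levels and single transcripts and in no test. Shared 31-base words were counted on GENCODE 29 transcripts, on either strand, and promoters come from RefSeq (GRCh38.p14). Python 3.11.15 with pandas 2.3.3 did the sums.

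Members past the threshold in any comparison are given in full. Of other genes, the target, MKI67, CCNB2, PCNA and up to 3 called genes of each further repair list are named. Promoters were examined for the 4 called members with the lowest adjusted p in gRNA2 among those outside chromosome 8 that have an entry in the promoter table (XRCC6, RPA1, POLQ and XRCC4). Alternatives were no filter on low counts, DESeq2 1.42.0, RLE scaling, CPM of at least 1 in 3 libraries, a replicate block, only the 2 groups compared, a transcript length offset, protein-coding genes alone and leaving out each library. Reads of protein-coding transcripts alone were added after seeing the data.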

Additional observations from a re-analysis of the deposited data

Results flagged for a closer look

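For 6 repair genes the effects of gRNA1 and gRNA2 against the same controls differed by the direct test between the guides (edgeR, adjusted over all genes). The log2 difference of gRNA2 from gRNA1 was -0.29 for XRCC6, -0.20 for XRCC5, -0.18 for POLQ, -0.29 for UBE2T, -0.34 for EXO1 and 0.24 for RAD52. Among all genes tested, 6.22% differed between the guides. None of the 6 differences passed with the transcript length offset, and DESeq2 did not call UBE2T, EXO1 and RAD52. Only those of XRCC6 and XRCC5 held without each library in turn. XRCC6 and XRCC5 were both near the control in gRNA1, at 1.02-fold and 0.998-fold. EXO1 and RAD52 did not pass against the control with either guide. S phase and G2 and mitosis genes differed between the guides as well (15 of 36 and 33 of 54, all lower in gRNA2), and their part in these 6 differences was not tested.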

How the results depend on the processing

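Of the 17 calls for members, 17 were kept with RLE scaling and with CPM of at least 1 in 3 libraries, 16 with no filter on low counts and with protein-coding genes alone, 13 with the replicate block, 12 with only the 2 groups compared, 11 in DESeq2, 8 with protein-coding transcripts only and 0 with the transcript length offset. XRCC6 (both comparisons), XRCC5 between the guides, and RPA1 and POLQ against the control in gRNA2 were lost under the length offset alone.

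With the length offset the genes called over the whole table numbered 538 in gRNA1, 434 in gRNA2 and 446 between the guides, and with protein-coding transcripts only 629, 856 and 779 (of 13236 genes tested). For the other settings in this paragraph that number is not given here, so their member counts have no share of all genes beside them. Recombination genes called in gRNA1 numbered 2 with no filter, with CPM of at least 1, with only the 2 groups and with protein-coding genes alone, and 0 with the offset and with protein-coding transcripts only. In gRNA2 they numbered 7 with no filter and 1 with the offset. Between the guides they numbered 0 in DESeq2, with the replicate block and with the offset, and 1 with only the 2 groups and with protein-coding transcripts only. End joining genes called in gRNA2 numbered 0 with the offset and 2 with protein-coding transcripts only, and between the guides 0 with the offset. Fanconi genes called in gRNA1 numbered 1 with only the 2 groups. In gRNA2 they numbered 1 in DESeq2, with the replicate block, with protein-coding genes alone and with protein-coding transcripts only, and 0 with only the 2 groups and with the offset. Between the guides they numbered 0 in DESeq2, with the replicate block and with the offset. The offset turned the direction of BARD1 in gRNA2 (-0.01 on the log2 scale) and of RAD51D in gRNA2 (-0.32, adjusted p = 0.0488), and protein-coding transcripts only turned that of RAD52 between the guides (-0.02, adjusted p = 0.949). The causes were not tested. With protein-coding transcripts only, the number of genes tested was smaller as well.

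Leaving out each library in turn gave 654 to 1701, 671 to 1817 and 575 to 1215 genes called in gRNA1, gRNA2 and between the guides. It gave 0 to 2, 1 to 4 and 0 to 2 recombination genes, 0 to 0, 3 to 5 and 2 to 4 end joining genes, and 0 to 1, 0 to 1 and 0 to 1 Fanconi genes. Same-numbered libraries did not deviate together (correlations of -0.0462 to 0.0732), so the replicate numbers were not taken as pairs. The replicate block ended the calls of RAD52 and EXO1 between the guides and of UBE2T in both comparisons. With 3 libraries a group a member that missed the threshold was not shown to be unchanged.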
